A study of Mus musculus with 2 samples.

Results

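Immediate early genes are genes that cells transcribe within minutes of a growth factor, a hormone or a stress, without first making new protein. Most encode unstable messages for transcription factors, such as the FOS and JUN subunits of AP-1 and the zinc finger protein EGR1, or for proteins that end the response, such as the phosphatase DUSP1 and the mRNA-destabilizing protein ZFP36. In the liver they are known for their early induction after partial hepatectomy, injury, feeding and handling of the tissue. The 10 genes described here are Fos, Fosb, Jun, Junb, Egr1, Ier2, Ier3, Btg2, Dusp1 and Zfp36, out of 18194 genes that could be named on the array. They were chosen by name with the FLS and DS signals of these same arrays known. Their signals and ratios are therefore given as a description, and no value below is independent of that choice.

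The samples were livers of 19-week-old mice. One was a pool of RNA from 3 FLS (fatty liver Shionogi) mice, which served as the model of nonalcoholic steatohepatitis (NASH), and the other a pool from 3 DS mice, the reference strain, whose livers had simple steatosis. FLS and DS are inbred strains raised from different lines of the outbred ddN colony, so strain and liver disease cannot be told apart. All mice ate a standard pellet diet with free access to water, and under pentobarbital their livers were perfused with saline before they were removed and frozen. The time from anaesthesia to freezing and the hour of the day are not given in the sources used here. Each pool was hybridized to 1 Affymetrix Mouse Genome 430 2.0 array of 45101 probe sets. A probe set is a group of short oligonucleotides, and 932 of the probe sets carried the symbols of several genes. With 1 array per strain there are no replicates, so differences carry no error between mice and are given without a test.

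Signals are linear intensities, and differences are FLS/DS ratios of these signals. Where a gene had several probe sets, the brightest by the mean of both pools was used. The median signal was 120 in FLS livers against 125 in DS livers. A signal below 200 was read as 200, which makes the ratio a bound, and a gene below 200 in both pools was given no ratio. By this limit 9160 genes were measured, and their median log2 ratio was 0.03. The tissue label was borne out by the markers of hepatocytes, since the signals of 12 such genes ran from 6995 to 32018 and their ratios from 1.01 to 1.12.

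The 10 genes are covered by 12 probe sets, 1 for each of 8 genes and 2 each for Jun and Btg2. Of the 10 genes, 8 were measured, all with signals above 200 in both pools, and 2, Fosb and Ier3, lay below 200 in both. The dimmest measured value was the DS signal of Junb, at 477, and the brightest value of the other 2 genes was the DS signal of Ier3, at 145. Of the 8 measured genes, 6 had a lower signal in FLS livers and 2 a higher one, with ratios from 0.271 for Fos to 1.28 for Junb. The signal was at least 2-fold lower in FLS livers for 2 genes, Fos and Jun, and at least 2-fold higher for none. Of all measured genes, 1.08% passed 2-fold downward and 1.46% upward, which is printed for scale since the members were listed with these values known. Egr1 and Dusp1 were at least 1.5-fold lower as well, so that 4 of 8 passed this smaller fold downward and 0 upward, against 3.05% and 4.63% of all measured genes. The 8 genes had a median log2 ratio of -0.58.

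**Figure D1:**
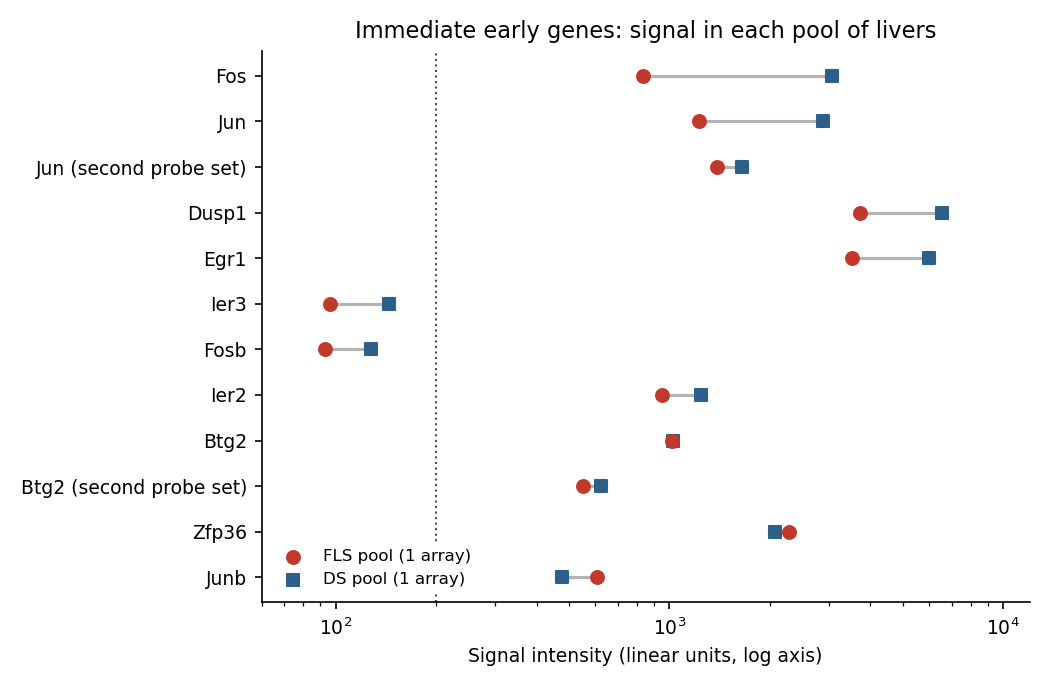
Signal intensity (log axis) of each of the 12 probe sets of the immediate early genes for FLS (circles) and DS livers (squares), each on 1 array, ordered by the FLS/DS ratio of the gene. The dotted line marks a signal of 200. Fos has its FLS signal at 833 and its DS signal at 3074, the signals of Btg2 nearly coincide on the brighter probe set, and those of Fosb and Ier3 lie to the left of the dotted line.

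Among the transcription factors, Fos stood farthest from an equal signal. Fos encodes a subunit of AP-1 that binds DNA only as a dimer with a JUN protein. Its signal was 833 in FLS livers against 3074 in DS livers, a ratio of 0.271, or a 3.69-fold lower signal in FLS livers. Of the 9160 measured genes, 24 had a lower ratio. In bulk tissue, fewer cells that express a gene and less RNA per cell cannot be told apart. Fosb, a close relative of Fos, had signals of 93.3 in FLS livers against 128 in DS livers, both near the array medians, so no fold is given for it.

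Jun encodes the main dimer partner of FOS, and its result depended on the probe set. On the probe set with the higher mean signal, Jun was at 1226 in FLS livers against 2874 in DS livers, a ratio of 0.427. On the second probe set it was at 1391 in FLS livers against 1646 in DS livers, a ratio of 0.845. Both were lower in FLS livers, and the second stayed between 0.830 and 0.974 over the scalings described below, but only the first passed 2-fold. The log2 ratios of the pair differed by 0.99, while the median difference was 0.15 over the 1876 genes with exactly 2 measured probe sets, of which 23 differed by as much as Jun or more. With the median of its 2 log2 ratios, Jun had a ratio of 0.600 and no longer passed 2-fold, which left Fos alone. Which probe set reads the level of Jun in these strains was not tested, as no probe sequences were used here.

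Junb encodes a JUN relative that is often a weaker activator than JUN. It went the other way, with a signal of 609 in FLS livers against 477 in DS livers, a ratio of 1.28. The AP-1 subunits of this group thus did not share one direction, with Fos and Jun lower in FLS livers and Junb higher.

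Egr1 encodes a zinc finger factor induced through the MAP kinase ERK and the serum response factor. It had a signal of 3519 in FLS livers against 6009 in DS livers, a ratio of 0.586, or a 1.71-fold lower signal in FLS livers. Ier2, a small nuclear protein gene of the early response, had a signal of 950.1 in FLS livers against 1246 in DS livers, a ratio of 0.762. Both had the lower signal in FLS livers and neither reached 2-fold.

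The remaining genes act in feedback and growth arrest. Dusp1, a phosphatase gene whose product switches off the MAP kinases p38 and JNK, had a signal of 3728 in FLS livers against 6567 in DS livers, a ratio of 0.568. Zfp36, whose product, tristetraprolin, binds AU-rich elements and speeds the decay of cytokine and early-response messages, had a signal of 2286 in FLS livers against 2075 in DS livers, a ratio of 1.10. These feedback genes lay on opposite sides of an equal signal. Btg2, an antiproliferative gene, had signals of 1017 in FLS livers and 1025 in DS livers on its brighter probe set, a ratio of 0.993. Its second probe set gave 551 in FLS livers against 626 in DS livers, a ratio of 0.880. Ier3, an early gene linked to apoptosis and NF-kB, had signals of 96.0 in FLS livers against 145 in DS livers and is given no fold.

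**Figure D2:**
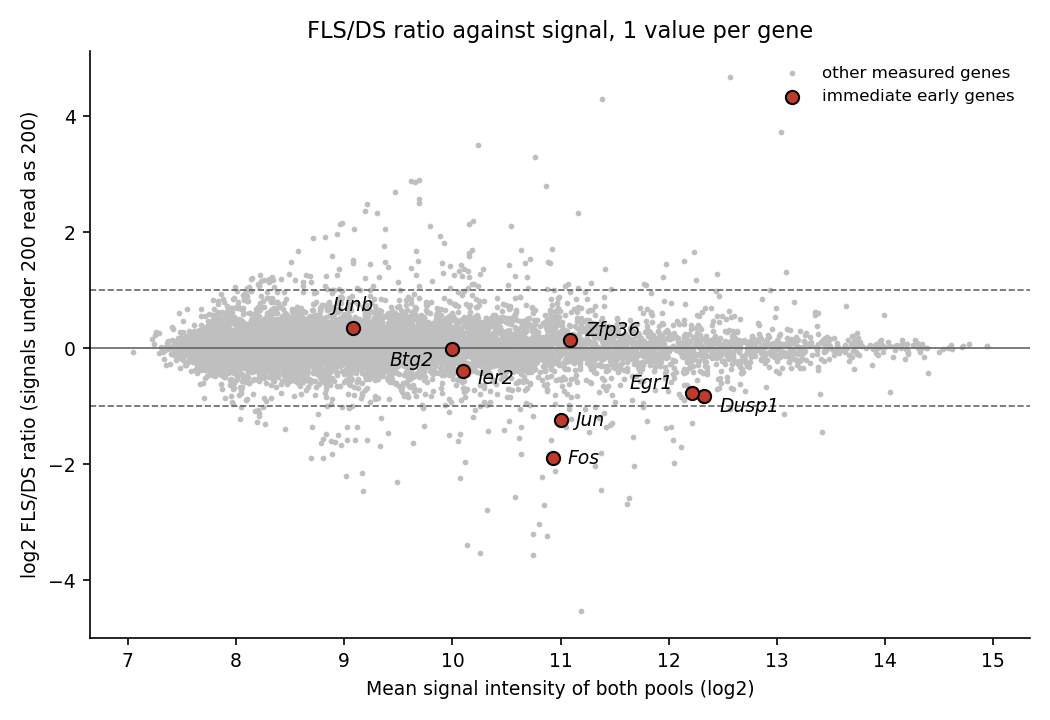
The log2 FLS/DS ratio against the mean signal intensity of both pools (log2) for the 9160 measured genes, 1 value per gene, with signals under 200 read as 200. Dashed lines mark 2-fold differences. Fos and Jun lie below the lower dashed line, Egr1 and Dusp1 just above it, and Junb and Zfp36 above 0, while Fosb and Ier3, at under 200 in both pools, have no point.

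The direction of 7 of the 8 measured genes held under 4 other scalings of the arrays to each other, the exception being Btg2. Over these scalings the ratio ran from 0.267 to 0.312 for Fos, from 0.422 to 0.492 for Jun on its brighter probe set, from 0.565 to 0.655 for Dusp1 and from 0.582 to 0.675 for Egr1. It ran from 0.739 to 0.879 for Ier2, from 1.24 to 1.47 for Junb and from 1.09 to 1.27 for Zfp36. The ratio of Btg2 ran from 0.965 to 1.14 and crossed 1. The highest of these values came from division by the ratio of Actb, 0.867, which raised the median over all measured genes by 0.19 on the log2 scale. Relative to the median of all genes, the median of the 8 genes was -0.61 as reported and -0.60 after that division. The division shifts members and other genes alike, so this difference could change only through genes near the lowest signal. The division also changed the split of all genes past 2-fold, from 134 higher and 99 lower to 219 higher and 80 lower.

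**Figure D3:**
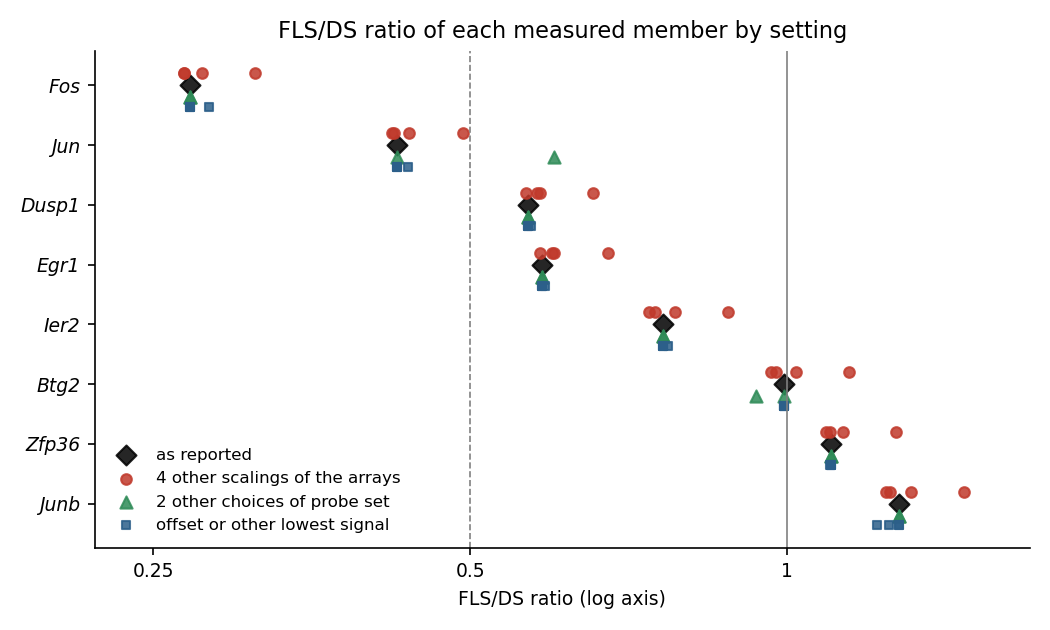
FLS/DS ratio (log axis) of the 8 measured genes as reported (diamonds), under 4 other scalings of the arrays (circles), under 2 other choices of probe set (triangles) and with an offset or another lowest signal (squares). The dashed line marks a ratio of 0.5. Fos stays to the left of it under every setting drawn, from 0.267 to 0.312, while Jun crosses to 0.600 when its 2 probe sets are combined by their median.

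Promoter sequence was set beside these values because Fos, Jun and Dusp1 had lower signals in FLS livers while Junb and Zfp36 did not. Of the 10 genes, 8, all but Egr1 and Ier2, were matched by symbol in a RefSeq table of GRCm38.p6, and the 250 bases before the transcription start are shown for these 5, 5′ to 3′ in the direction of the gene. They are the reference sequence and not that of FLS or DS mice. Capitals mark letters that match a cyclic AMP response element (TGACGTCA) or its core (CGTCA, or TGACG on the other strand), an EGR site (GCGNGGGCG), a TATA box (TATAAA) or a CArG box, the core of the serum response element. The AP-1 site (TGANTCA) was searched too. All were searched on both strands, and each full cyclic AMP element holds 2 overlapping cores. The windows were chr12:85473640-85473889 on the plus strand for Fos, and on the minus strand chr4:95052223-95052472 for Jun, chr17:26508473-26508722 for Dusp1, chr8:84978749-84978998 for Junb and chr7:28379229-28379478 for Zfp36.
Fos: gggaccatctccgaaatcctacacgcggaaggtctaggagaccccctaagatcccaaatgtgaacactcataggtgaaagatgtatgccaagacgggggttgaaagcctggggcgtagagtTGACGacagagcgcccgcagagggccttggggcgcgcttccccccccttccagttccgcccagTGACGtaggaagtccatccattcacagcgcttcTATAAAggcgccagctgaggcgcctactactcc
Jun: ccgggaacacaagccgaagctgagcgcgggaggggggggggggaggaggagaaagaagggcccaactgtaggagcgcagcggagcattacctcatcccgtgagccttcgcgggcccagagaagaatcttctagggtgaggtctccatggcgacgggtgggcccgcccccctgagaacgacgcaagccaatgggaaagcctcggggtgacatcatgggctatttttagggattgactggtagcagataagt
Dusp1: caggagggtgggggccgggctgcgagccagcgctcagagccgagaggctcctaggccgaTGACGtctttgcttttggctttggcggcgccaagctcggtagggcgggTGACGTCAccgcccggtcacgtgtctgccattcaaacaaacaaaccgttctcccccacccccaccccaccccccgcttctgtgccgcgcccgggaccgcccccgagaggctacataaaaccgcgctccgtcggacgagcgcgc
Junb: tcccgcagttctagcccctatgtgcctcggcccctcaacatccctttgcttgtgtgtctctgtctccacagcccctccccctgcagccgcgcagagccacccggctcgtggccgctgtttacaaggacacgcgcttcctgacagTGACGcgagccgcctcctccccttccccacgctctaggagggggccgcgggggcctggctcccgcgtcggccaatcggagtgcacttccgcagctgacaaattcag
Zfp36: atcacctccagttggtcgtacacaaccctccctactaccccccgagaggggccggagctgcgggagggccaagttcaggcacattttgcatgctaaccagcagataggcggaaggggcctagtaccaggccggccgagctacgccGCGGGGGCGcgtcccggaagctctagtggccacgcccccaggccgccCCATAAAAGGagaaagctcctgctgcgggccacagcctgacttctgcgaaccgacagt

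The window of Fos, the gene with the lowest ratio, held cores of the cyclic AMP element that began 129 and 66 bases before the start and a TATA box that began 33 bases before it. That of Dusp1 held a full cyclic AMP element that began 143 bases before the start and a further core that began 191 bases before it. The window of Junb held 1 core, that of Zfp36 an EGR site and a CArG box that began 105 and 58 bases before the start, and that of Jun none of the letters searched. Cores thus occurred both in genes with a lower signal in FLS livers, Fos and Dusp1, and in Junb, whose signal was higher. Of the windows not shown, that of Btg2, a gene at a ratio of 0.993, held a full cyclic AMP element and an EGR site. That of Fosb, which has no fold, held a core and an EGR site.

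Of the 8 windows, 5 held a core, against 17.8% of 32851 promoter windows of the same length, and 2 held the full element, against 1.55%. An EGR site was found in 3 of 8 windows, against 4.70% of all, a CArG box in 1 against 1.47% and a TATA box in 1 against 12.4%. The AP-1 site was found in 0 of 8 windows and in 6.75% of all. The windows of the members were 54.4% to 73.2% GC, against a median of 52.4% over all windows. A match is a match of letters and not a binding site, and letters missing from a window say nothing of a site elsewhere.

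Other genes of the early response were mixed in direction. In 4 lists of further early-response genes, 57 of 76 genes were measured, of which 31 had a ratio below 1 and 26 a ratio above 1, and their median log2 ratio was -0.07. By 2-fold or more, 3 (5.26%) were lower and 3 (5.26%) higher in FLS livers, against 1.08% and 1.46% of all measured genes. Among 9 measured subunits of the AP-1, ATF and MAF families, none was 2-fold different in either direction. Jund, the JUN relative that is expressed in resting cells, had a signal of 3469 in FLS livers against 2616 in DS livers, a ratio of 1.33. Mafg and Maf, small and large members of the MAF family, were higher in FLS livers as well, Mafg at a ratio of 1.36 (1.01 on a second probe set) and Maf at 1117 in FLS livers against 746 in DS livers, while Batf2 had a ratio of 0.798. Atf3 and Fosl1 were below 200 in both pools. Of the JUN genes on this array, Jun alone was therefore lower in FLS livers, on both of its probe sets, while Junb and Jund were higher.

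Of 7 measured genes of the EGR and NR4A group, 1 was 2-fold different. Nab2, whose product represses EGR1, had a signal of 451 in FLS livers against 196 in DS livers, and so was at least 2.26-fold higher in FLS livers. Its relative Nab1 had a ratio of 1.15, and of 0.935 on a second measured probe set. Egr1 and the repressor gene Nab2 thus differed in opposite directions. Egr4 had a ratio of 0.805, Nr4a2 of 0.845 and Nr4a3 of 0.847, with Egr3 at 307 in FLS livers against 345 in DS livers. Nr4a1, an orphan nuclear receptor gene of the early response, had a signal of 180 in FLS livers against 272 in DS livers, so its ratio was at most 0.736.

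Of 18 measured early-response transcription factors outside these families, 2 were at least 2-fold higher and 1 was at least 2-fold lower. Id1 and Id3, whose products block the DNA binding of basic helix-loop-helix factors, were the higher ones. Id1 had a signal of 1408 in FLS livers against 247 in DS livers, a ratio of 5.71, and Id3 had 1474 in FLS livers against 548 in DS livers, a ratio of 2.69. The lower one was Myc, the growth-promoting factor, with a signal of 146 in FLS livers against 449 in DS livers, a ratio of at most 0.446. With 50 added to both signals that bound was 0.501, and Myc no longer passed 2-fold. Below 2-fold, the basic leucine zipper repressor gene Nfil3 had a ratio of 0.577 and the interferon regulatory factor gene Irf1 of 1.64.

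Of 23 measured effector and feedback genes, 2 were at least 2-fold lower and none was at least 2-fold higher in FLS livers. Gadd45g, a stress sensor gene that activates p38 and JNK signalling, had a signal of 323 in FLS livers against 2235 in DS livers, a ratio of 0.144, below that of Fos. Phlda1, a pleckstrin homology domain gene, had a signal of 2239 in FLS livers against 5823 in DS livers, a ratio of 0.385. The polo-like kinase gene Plk3 had a ratio of 0.541 and the salt-inducible kinase gene Sik1 of 0.544. The genes with the largest differences on this list were thus lower in FLS livers, while its median log2 ratio was -0.07.

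The DUSP phosphatases, relatives of Dusp1, were measured for 5 of 9 genes, all 5 with a ratio below 1 as reported and none 2-fold lower. Dusp6, which is specific for ERK, had a signal of 1429 in FLS livers against 2316 in DS livers, a ratio of 0.617, close to the 0.568 of Dusp1. The others ran from 0.776 for Dusp8 to 0.983 for Dusp7. The number of ratios below 1 was 4 after median centring and 3 after division by Actb, so the direction of the whole family is not fixed. Of 13 measured genes of the ZFP36 family and mRNA decay, none was 2-fold different, and the AU-rich element binding gene Hnrnpd had the largest difference, at 1.49. The relatives of Zfp36 in this list, Zfp36l1 and Zfp36l2, had ratios of 0.964 (0.745 on a second measured probe set) and 0.919.

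The genes upstream of the early response showed no difference of 2-fold. Of 14 measured genes of the MAP kinase cascade none was 2-fold different, and their median log2 ratio was 0.05. Map2k6, a kinase of p38, had a ratio of 0.656, Nras of 0.691, the JNK gene Mapk8 of 1.33 and the receptor gene Egfr of 1.31. The direction of Egfr and Mapk8 depended on the probe set, since other measured probe sets had ratios of 0.990, 0.985 and 0.691 for Egfr and 0.874 for Mapk8. Of 13 measured transcriptional regulators, listed by name as upstream of these genes, none was 2-fold different, and their median log2 ratio was -0.03. Crem, a cyclic AMP responsive modulator, was the farthest from 1, at 331 in FLS livers against 522 in DS livers, a ratio of 0.633. Rela had a ratio of 1.34, and Srf, the serum response factor gene, had signals of 457 in FLS livers against 519 in DS livers.

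Glucocorticoids induce Dusp1 and several other genes of the liver, and 13 genes of that response were measured. Of these, 1 was 2-fold different, Lcn2, at a ratio of 4.34, which had been singled out on these same arrays before. On their brightest probe sets the others ran from 0.836 for the metallothionein gene Mt2 to 1.30 for Tsc22d3. Further measured probe sets of these genes ran wider, from 0.662 for Pck1 and 0.665 for Errfi1 to 1.46 for Zbtb16. Over all 9 lists of related genes, 112 of 157 genes were measured, and their median log2 ratio was 0.01. By 2-fold or more, 3 (2.68%) were lower and 4 (3.57%) higher, against 1.08% and 1.46% of all measured genes.

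**Figure D4:**
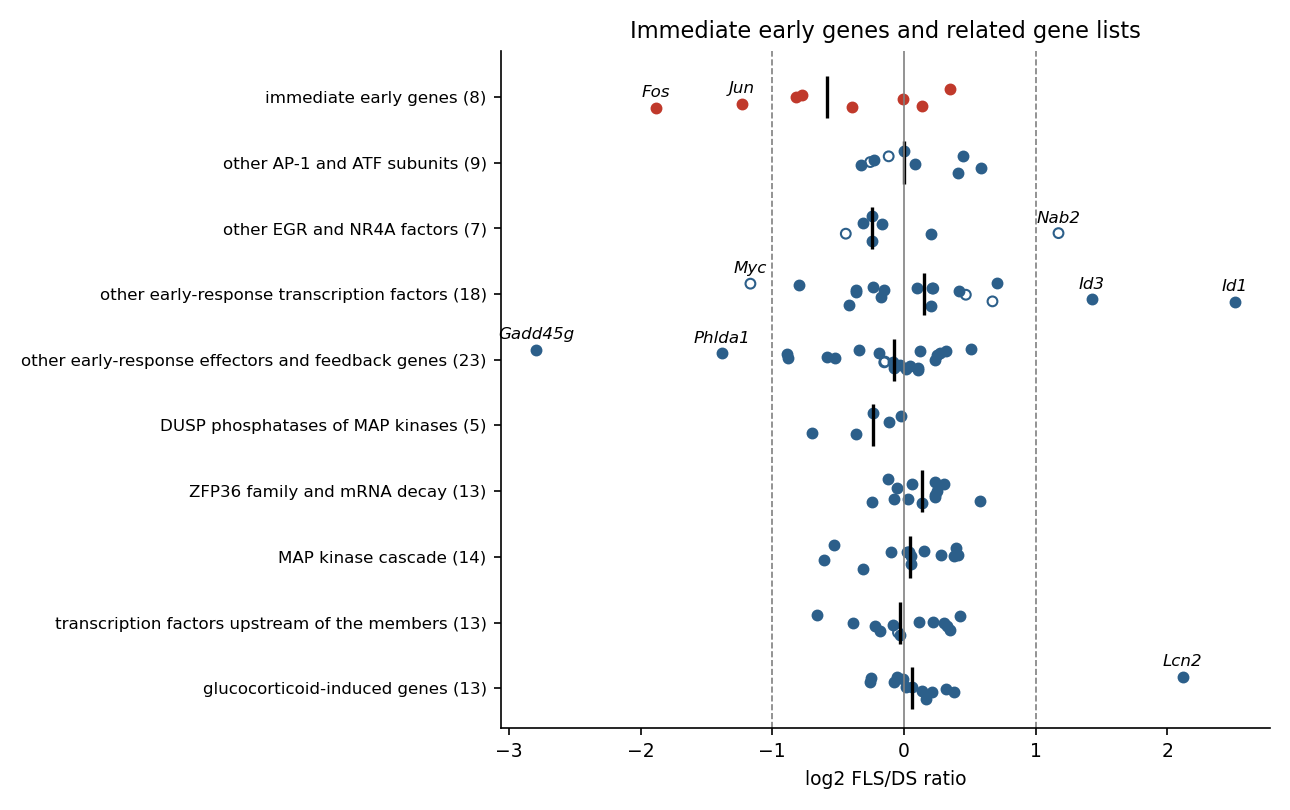
The log2 FLS/DS ratio of each measured gene of the 8 immediate early genes and of 9 lists of related genes, with the number measured in parentheses. Vertical bars are medians, dashed lines mark 2-fold differences, and open circles are bounds. The bar of the immediate early genes is at -0.58, while those of the other lists lie between -0.24 and 0.15, and the genes past 2-fold are named.

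Markers of other liver cells were read because early genes are expressed by many cell types. Of 14 Kupffer cell and macrophage markers, all measured, 11 had a ratio below 1 (8 after division by Actb), with a median log2 ratio of -0.22, and their summed signal was 8236 in FLS livers against 9749 in DS livers. The lowest was Vsig4, a complement receptor gene of Kupffer cells, at 0.554, and none was 2-fold different. Of 9 measured markers of stellate cells and fibroblasts out of 12, 2 were at least 2-fold higher, against 1.46% of all measured genes. This count was 1 under quantile normalization or loess and 3 of 11 after division by Actb. The median log2 ratio of these markers was 0.46, and their summed signal was 14440 in FLS livers against 10233 in DS livers. As reported, stellate cell markers were thus mostly higher and macrophage markers mostly lower in FLS livers. Endothelial markers had a summed signal of 8460 in FLS livers against 7953 in DS livers, with 5 of 9 measured genes above a ratio of 1, 4 below and a median log2 ratio of 0.01. Cholangiocyte markers had a summed signal of 955 in FLS livers against 899 in DS livers. Of their 3 measured genes 1 was above a ratio of 1, Sox9, at 365 in FLS livers against 140 in DS livers. Their median log2 ratio was -0.08. The summed signals take in every marker on the array, also those below 200 in both pools, so the cholangiocyte sum is in large part signal below that limit. Only 3 of 9 neutrophil markers on the array reached 200, none of them above 307, and 3 of 12 markers of T and NK cells did. Of 3 red blood cell markers, the heme synthesis gene Alas2 was at 847 in FLS livers against 5423 in DS livers, while the other pair lay below 200. Whether any of these differences has a part in the signals of Fos, Jun, Egr1 and Dusp1 was not tested.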

How the data were processed

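RNA was pooled over 3 mice per strain, FLS or DS, and each pool was hybridized to 1 array. The deposited signal intensities were computed by the authors with MBEI (PM-only), which fits a model to the perfect-match probes, and are on a linear scale. The submitters' processing notes name affy, while the scaling of one array to the other was not found there or in the methods. The number of arrays, 2, limits the precision.

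Of 45101 probe sets, 34958 had 1 gene symbol, 932 had several and were not used, and 9211 were unnamed here. Symbols were updated through Entrez numbers for 34754. The probe set with the highest mean of both signals stood for its gene, and signals below 200 were read as 200. No offset, scaling or test was applied. The named genes are the 10 members, up to 4 genes per list with the largest log2 ratio among those above 200 in both pools, and any list gene past 2-fold. Atf3, Fosl1, Dusp7, Egr3, Nr4a1, Srf, Zfp36l1, Zfp36l2 and the genes of the closing section were picked with their values known. The members and lists were chosen with earlier results of these data known.

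Alternatives were quantile normalization, median centring, a loess trend (fraction 0.4), division by Actb, an offset of 50, other probe sets, lowest signals of 100, 500 or none, and folds of 1.5 and 3. A log2 value was taken to move by more than 0.22, the SD between probe sets of a gene, pooled over genes, and a count by more than 1.5 times. On simulated signals of 18194 genes, all 100 genes made 3-fold higher passed the 2-fold limit. These were bright genes under an assumed noise, brighter than Fos, Jun, Junb, Ier2 and Btg2. The simulation therefore checked the calculation only and says nothing of how precise the ratios of the members are. Calculations were run in Python 3.11.15 with pandas 2.3.3, numpy 2.4.6 and, for the loess trend, statsmodels 0.14.6, and plots were drawn with matplotlib 3.10.9.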

Additional observations from a re-analysis of the deposited data

How the results depend on the processing

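Of the 8 measured immediate early genes, 7 moved by no more than the spread between probe sets of a gene under all 10 alternatives of value, and Jun moved under 1 of them. For a gene with 1 probe set and signals above 500 in both pools, the alternatives of probe set and lowest signal return the same value. Division by Actb shifts all members alike by 0.21, under the limit of 0.22, and median centring by less. For such a gene only quantile normalization, the loess trend and the offset could have counted as a move. The number at least 2-fold lower was 1, Fos, with the median over the probe sets of a gene. With another fold limit it was 4 at 1.5-fold and 1 at 3-fold, by the construction of the limit. The number at least 2-fold higher was 0 under every alternative. Among the related genes, those at least 2-fold lower were 9 at 1.5-fold and 1 at 3-fold, against 3 at 2-fold, and those higher were 2 at 3-fold, against 4. The median log2 ratio of the members stayed within that same spread, and with no lowest signal it took in all 10 genes, at -0.52. Over the alternatives the ratio of Id1 ran from 2.82 to 6.58, that of Lcn2 from 2.88 to 5.00 and that of Gadd45g from 0.142 to 0.224, in each case nearest to 1 with a lowest signal of 500, while Myc lost its 2-fold difference with an offset of 50. Signals near the array medians limit what can be said of Fosb and Ier3 in both pools. The same holds for Myc in FLS livers, where its signal was 146, so that its ratio is a bound. No paired analysis was possible because each strain has 1 pooled sample.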

Other observations

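Genes outside the lists were looked up after the values above had been seen and are given as values only. Beside Id1 and Id3, known targets of bone morphogenetic protein (BMP) signalling, 14 further genes of that pathway were read, of which 9 were measured and none was 2-fold different. Hamp, which encodes the iron hormone hepcidin, had a signal of 15898 in FLS livers against 9555 in DS livers, a ratio of 1.66. The inhibitor gene Smad7 had a ratio of 1.75, or 2.02 after division by Actb, Smad1 of 1.58 and the ligand gene Bmp6 of 0.782, with Smad7 and Bmp6 at signals between 211 and 388.

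Heat shock genes, another group that responds fast to stress, had lower signals in FLS livers. Of 10 genes read, 5 were at least 2-fold lower and none 2-fold higher, against 1.08% and 1.46% of all measured genes. Hspb1, a small heat shock protein gene, had a ratio of 0.109, Hspa1a of 0.204, the co-chaperone gene Dnajb1 of 0.244, Hsph1 of 0.367 and Hspa1b of 0.456. Hspa1a and Hspa1b are near-identical copies, so their separate values are uncertain. The constitutive chaperone genes Hspa8 and Hspd1 had ratios of 0.878 and 0.888.

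Of 6 measured genes among 10 that follow ERK activity, Ccnd1, the cyclin D1 gene, was 9.83-fold higher in FLS livers, at 3155 in FLS livers against 321 in DS livers, while Spred1 had a ratio of 0.905 and Spry4 of at most 0.732. Ccnd1 was the only gene of this list past 2-fold. It and Fos differed in opposite directions, and whether growth factor signals have a part in either difference was not tested. The reference genes Actb, Gapdh, Hprt and Tbp had ratios of 0.867, 0.860, 0.843 and 0.871, all below the median of the measured genes.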
